A study of Homo sapiens with 24 samples.

Results

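Mitochondrial ribosomal proteins are the proteins of the ribosome that works inside the mitochondrion. The genes studied here were those whose symbol in the annotation of the Illumina HumanHT-12 v4 array is MRPL or MRPS followed by a number, with pseudogenes left out. This rule gave 76 genes out of 20046 genes with a named probe, 48 with an MRPL symbol (large subunit) and 28 with an MRPS symbol (small subunit). Each gene was read from the probe with the highest mean signal over the 24 arrays, chosen from 110 probes in all. The rule used gene names and mean signal only, but the gene set was chosen with earlier results of these data known.

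RNA came from 2 established human lines of diffuse large B-cell lymphoma (DLBCL), DoHH2, of the germinal center B-cell type (GCB), and TMD8, of the activated B-cell type (ABC). Cells were treated for 8 h with ITF-A at 100 nM, ITF-B at 200 nM or the solvent DMSO, and each compound had its own DMSO arrays in each line. ITF-A and ITF-B are histone deacetylase inhibitors (HDACi), which raise the acetylation of histones and other proteins. The 8 groups held 3 arrays each, 1 from each of 3 independent experiments, on 2 chips of 12 arrays. The lines stand for 1 cell line per DLBCL type, so that a difference between them is a difference between 2 lines.

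Mitochondrial ribosomes translate the few proteins encoded by mitochondrial DNA, all of them subunits of the respiratory chain or of ATP synthase. Their RNA is transcribed from mitochondrial DNA, while every one of their proteins is encoded in the nucleus, made in the cytosol and imported. Many of these proteins belong to families shared with the bacterial ribosome, and others are found only in mitochondria.

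All 76 genes had a signal above the median of all 47231 probes, and 55 of them lay among the brightest 10%. Their raw intensities ran from 115.9 to 5726. The median intensities of the arrays were between 93.2 and 112.1, and arrays of the same group correlated at r = 0.993 to 0.996 across probes. Both lines expressed the B-cell genes CD79A and CD79B, and CD3D, CD3E and CD3G did not exceed a log2 signal of 6.17, where the median of all probes was 6.16. Of the other B-cell genes listed, MS4A1, CD22 and BLK gave 7.76, 6.79 and 8.76 on DoHH2 DMSO arrays, but PAX5 gave 6.02. On TMD8 DMSO arrays these 4 genes gave 9.66, 8.06, 8.31 and 6.35. The other T-cell genes listed, CD2, CD8A and CD4, reached 6.54, 6.47 and 6.20. Of 6 genes known to mark the ABC type, 5 were higher in TMD8 DMSO arrays. Of 6 that mark the GCB type, MME was higher in DoHH2 cells, but 4 were higher in TMD8 cells, among them BCL6 (5.84 in DoHH2 and 9.16 in TMD8 cells) and LMO2 (6.56 and 9.62), so these markers went against the label. An array measures each mRNA relative to the other mRNAs of its sample, so a change in the number of cells or in the total RNA per cell cannot be seen in these values.

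The first question was how the mitochondrial ribosomal protein genes responded to each compound in each line. In all 4 comparisons most of them fell. A gene was called lower or higher when its Benjamini-Hochberg adjusted p from limma, over all 47231 probes, was under 0.05. In DoHH2 cells treated with ITF-A, 52 of 76 were called lower, 4 higher and 20 neither, with a median log2 change of -0.38. The share of all genes called in the same comparison was 17.2% lower and 19% higher, and among the brightest 10% of probes it was 31.9% lower and 32.8% higher. ITF-B in DoHH2 cells lowered 50 and raised 7, with a median of -0.40 (17% of all genes lower and 18.8% higher). Among the brightest 10% of probes 31.7% were lower and 34.4% higher with ITF-B. Under median scaling the DoHH2 medians were larger, -0.62 and -0.61, beside -0.39 and -0.25 in TMD8 cells, and the median of the brightest 10% of probes was then -0.15 and -0.16 in DoHH2 and 0.02 and 0.08 in TMD8 cells.

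In TMD8 cells ITF-A lowered 50 and raised 6 of the 76, with a median log2 change of -0.36, against 17.8% of all genes lower and 19.2% higher. ITF-B lowered 46 and raised 5, with a median of -0.28, against 17.4% lower and 19.3% higher. The median change of all genes was between -0.0034 and 0.0017 in the 4 comparisons. As the mean of both lines, ITF-A lowered 57 and raised 6 (20.6% of all genes lower and 22.3% higher), and ITF-B lowered 56 and raised 7 (20.2% and 22.4%).

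The p-values rest on the spread within the 8 groups of 3 arrays, pooled in 1 fit over both lines and moderated across probes. Each group held 3 independent experiments in 1 line. The standard error of a log2 change within a line was 0.065 to 0.100 over the 76 genes. With ITF-A, all 3 treated arrays lay below all 3 DMSO arrays for 56 genes in DoHH2 cells and for 53 in TMD8 cells, against 16.8% and 17.4% of all probes, and above them for 5 and 7 (16.4% and 16.3%). With ITF-B this held for 55 genes in DoHH2 cells and 46 in TMD8 cells, against 17.1% and 16.6%, and the reverse for 9 and 6 (16.6% and 15.9%). Taking each experiment alone, the median change of the 76 genes lay between -0.45 and -0.31 in DoHH2 cells and between -0.38 and -0.27 in TMD8 cells, so no experiment went the other way. With the arrays of chip 1 alone 37, 41, 47 and 38 genes were called lower in the 4 comparisons (DoHH2 with ITF-A and ITF-B, then TMD8), and with those of chip 2 alone 49, 45, 36 and 34.

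The falls were shared across the comparisons in many genes. There were 36 genes called lower in all 4, of which 21 carry an MRPL and 15 an MRPS symbol. MRPL41 and MRPL55 were called higher in all 4. The genes MRPL10, MRPL30, MRPL47, MRPL49, MRPL53 and MRPS21 were called in none. The shares of all genes called lower in all 4, higher in all 4 or in none were not computed, so these counts have no background. MRPL4 was the one gene called in both directions, lower in DoHH2 cells with ITF-B (-0.29) and higher in TMD8 cells with ITF-A (0.25). The call of that rise was lost when arrays were scaled to their median or to their 75th percentile. Of the 3 probes of MRPL4, only 1 was called in each of these 2 comparisons.

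**Figure D1:**
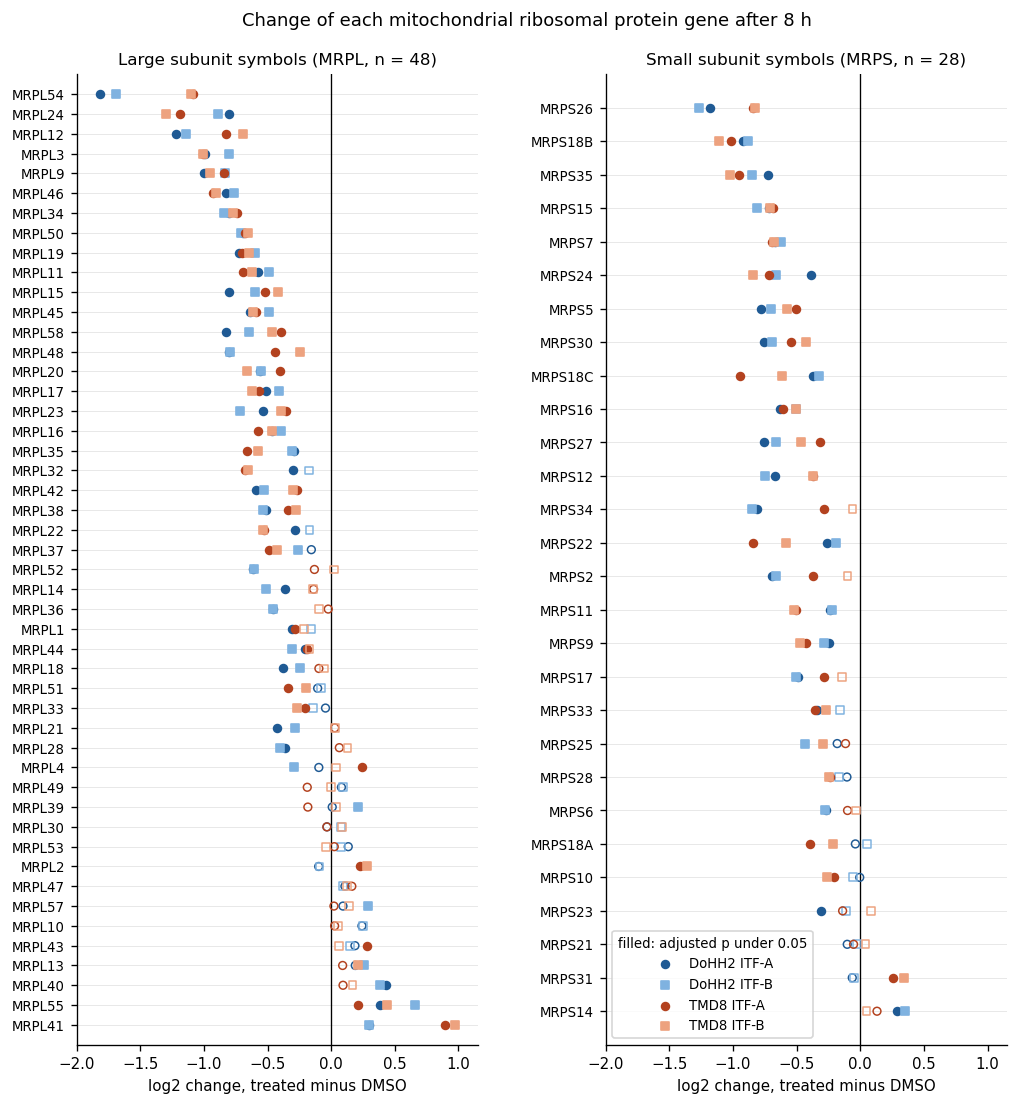
Log2 change (horizontal axis, treated minus DMSO) of the 48 MRPL genes and the 28 MRPS genes, 1 row per gene, in DoHH2 (blue) and TMD8 (red) cells with ITF-A (circles) and ITF-B (squares). Filled symbols mark an adjusted p under 0.05. Most symbols lie left of 0, with MRPL54 reaching -1.81 and MRPL41 reaching 0.97.

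Both subunits took part. In DoHH2 cells ITF-A lowered 31 and raised 3 of the 48 MRPL genes (median -0.37), and lowered 21 and raised 1 of the 28 MRPS genes (median -0.38). The counts with ITF-B were 30 and 6 for MRPL (median -0.35) and 20 and 1 for MRPS (median -0.47). In TMD8 cells ITF-A lowered 28 and raised 5 MRPL genes (-0.31) and lowered 22 and raised 1 MRPS gene (-0.39), and ITF-B lowered 26 and raised 4 MRPL genes (-0.26) and lowered 20 and raised 1 MRPS gene (-0.40). The medians of the subunits are descriptions, and their difference was not tested.

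MRPS18A and MRPS30 carry small subunit symbols, but their proteins are now placed in the large subunit. MRPS30 was lower in all 4 comparisons (-0.76, -0.69, -0.55 and -0.43 for ITF-A and ITF-B in DoHH2, then in TMD8 cells). MRPS18A, one of 3 paralogs of a bacterial small subunit protein, fell only in TMD8 cells (-0.40 and -0.21) and gave -0.04 and 0.06 in DoHH2 cells. Counted with the large subunit, they left the medians of the MRPL group between -0.37 and -0.26.

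Families shared with bacteria and proteins found only in mitochondria were both lowered. In DoHH2 cells with ITF-A 17.2% of all genes and 31.9% of the brightest 10% of probes were lower. In DoHH2 cells with ITF-A, 21 of 29 large subunit genes of shared families and 10 of 19 mitochondria-specific ones were called lower, with medians of -0.38 and -0.21. The 16 small subunit genes of shared families gave 12 lower (median -0.38) and the 10 mitochondria-specific ones gave 8 (median -0.53). MRPS18B was counted among these 10, although its paralog MRPS18C was counted with the shared families. With ITF-A in TMD8 cells the medians were -0.35 and -0.27 in the large and -0.40 and -0.34 in the small subunit. The shared families had the larger median fall in both subunits there, while in DoHH2 cells with ITF-A this was so in the large subunit and the reverse in the small one. These differences were not tested.

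Among large subunit genes the largest fall was that of MRPL54, which encodes a mitochondria-specific protein. Its log2 signal in DoHH2 cells was 10.21, 10.17 and 10.28 on DMSO arrays and 8.47, 8.33 and 8.43 on ITF-A arrays. With ITF-B it was 8.42, 8.47 and 8.33, against 10.06, 10.10 and 10.13 on the matching DMSO arrays. The groups lay far apart with no overlap, a 3.51-fold fall with ITF-A (-1.81, SE 0.068, limma adjusted p = 1.05e-23) and a 3.23-fold fall with ITF-B. In TMD8 cells MRPL54 went from 9.92, 9.87 and 9.74 to 8.70, 8.76 and 8.81 with ITF-A, and from 9.89, 10.02 and 9.92 to 8.78, 8.86 and 8.89 with ITF-B. These falls were 2.12-fold and 2.15-fold.

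MRPL12, related to the bacterial stalk protein L7/L12 and known to bind the mitochondrial RNA polymerase, fell next most in DoHH2 cells with ITF-A. Its signal was 9.67, 9.58 and 9.55 on DMSO arrays and 8.52, 8.31 and 8.32 on ITF-A arrays, a fall of 1.22 (SE 0.071, limma adjusted p = 1.05e-17). In TMD8 cells it started lower, at 8.90, 8.85 and 9.02, and was 8.07, 8.08 and 8.13 with ITF-A, a fall of 0.83. Treated and DMSO arrays did not overlap in either line. With ITF-B the changes were -1.14 and -0.69.

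MRPL24, of a family shared with bacteria, fell most in TMD8 cells. There its signal was 10.06, 9.93 and 10.04 on DMSO arrays and 8.83, 8.83 and 8.82 with ITF-A, and 10.08, 10.20 and 10.14 against 8.80, 8.87 and 8.87 with ITF-B. The falls were 2.28-fold and 2.46-fold (-1.19 and -1.30, SE 0.069, limma adjusted p = 5.98e-18 and 4.06e-19). In DoHH2 cells they were 1.75-fold and 1.85-fold, and a second probe of the gene gave -0.91, -0.81, -1.21 and -1.17 over the 4 comparisons in the same order.

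Other large subunit genes fell by similar amounts in both lines. MRPL3, a core protein near the peptidyl transferase center, changed by -0.99 and -0.80 in DoHH2 and by -1.01 with either compound in TMD8 cells. MRPL46, a mitochondria-specific protein, gave -0.83, -0.76, -0.93 and -0.91. MRPL11, of the region that binds translation factors, gave -0.58, -0.49, -0.70 and -0.63. MRPL44, a protein with a double-stranded RNA-binding fold, fell less (-0.21, -0.30 and -0.19), and gave -0.17 with ITF-B in TMD8 cells, where it was not called (limma adjusted p = 0.069).

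Among small subunit genes MRPS26 and MRPS18B fell most in DoHH2 cells, and MRPS18B also in TMD8 cells, where MRPS35 (-0.95 and -1.02) came next. MRPS26, a mitochondria-specific protein, had a signal of 10.17, 10.18 and 10.08 on DoHH2 DMSO arrays and 9.01, 8.98 and 8.89 on ITF-A arrays. The ITF-B arrays gave 8.87, 8.87 and 8.69, against 10.04, 10.16 and 10.05. Its falls in DoHH2 cells were 2.27-fold and 2.41-fold (-1.18 and -1.27, SE 0.066, limma adjusted p = 2.73e-18 and 3.3e-19). In TMD8 cells they were 1.80-fold and 1.78-fold. No treated array reached a DMSO array of its line.

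MRPS18B went from 10.46, 10.53 and 10.47 to 9.43, 9.52 and 9.46 with ITF-A in TMD8 cells, and from 10.64, 10.53 and 10.54 to 9.47, 9.41 and 9.50 with ITF-B. The falls were 2.02-fold and 2.16-fold there, and 1.89-fold and 1.84-fold in DoHH2 cells (limma adjusted p = 1.25e-14 and 4.53e-14). MRPS18C, its paralog, changed by -0.37 and -0.32 in DoHH2 and by -0.95 and -0.62 in TMD8 cells. Thus 2 of the 3 MRPS18 genes fell in all 4 comparisons and MRPS18A did not.

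Other small subunit genes with known roles fell as well. MRPS12, a protein of the decoding center, changed by -0.67 and -0.75 in DoHH2 cells and by -0.37 with either compound in TMD8 cells. MRPS16, of a family shared with bacteria, changed by -0.63, -0.50, -0.61 and -0.50 in the same order of comparisons. MRPS22 and MRPS34, both mitochondria-specific and both known from inherited mitochondrial disease in patients, responded differently in the lines and are given with the comparison of the lines.

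**Figure D2:**
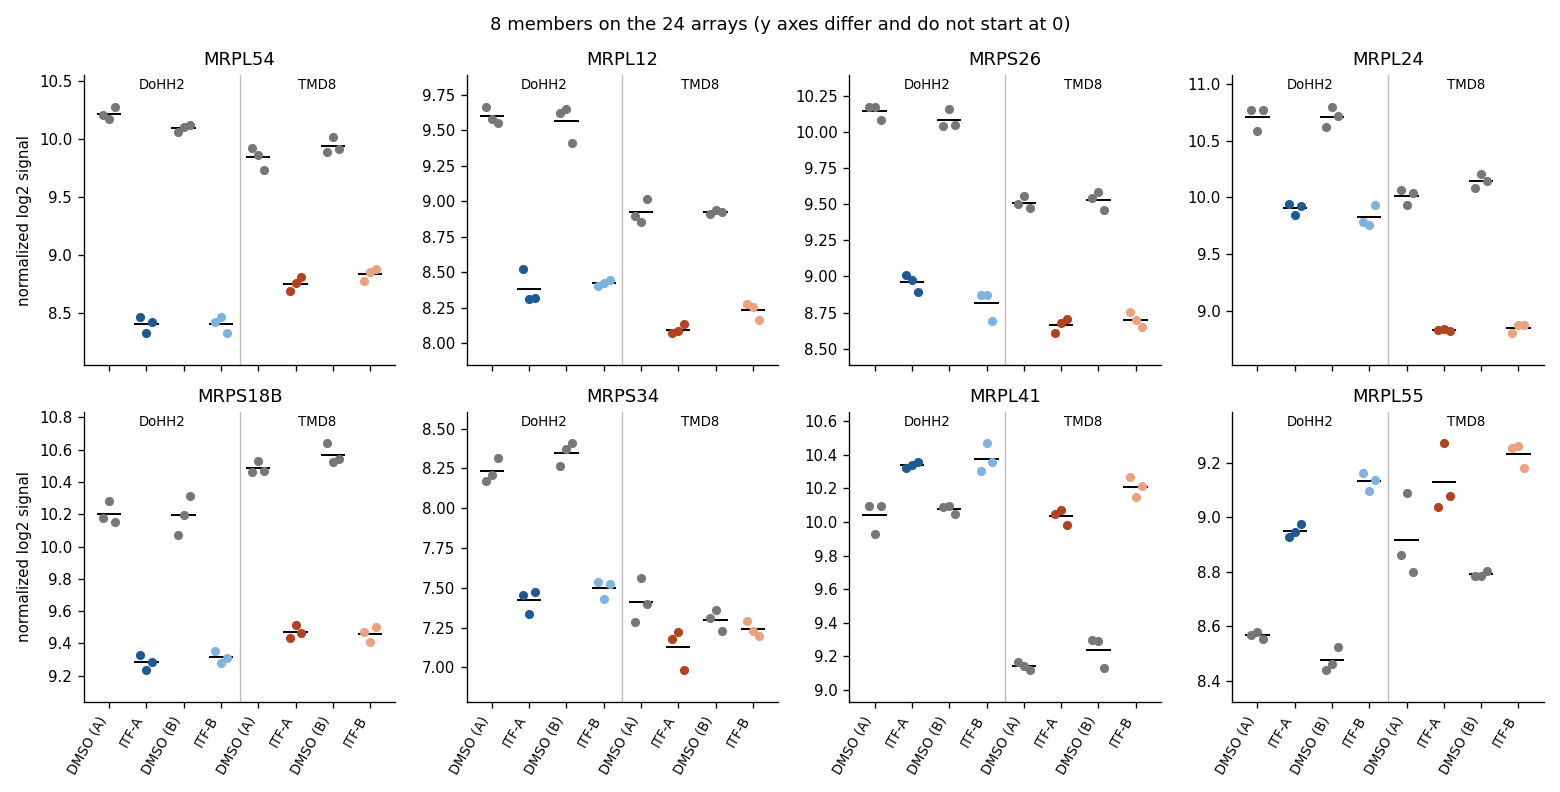
Normalized log2 signal (vertical axis) of 8 members on each of the 24 arrays, in the groups named on the horizontal axis, where DMSO (A) and DMSO (B) are the controls of ITF-A and ITF-B. Points are single arrays and bars the mean of 3 arrays. MRPL54, MRPL12, MRPS26, MRPL24 and MRPS18B fall in both lines, MRPS34 is lower in TMD8 DMSO than in DoHH2 DMSO arrays, and MRPL41 and MRPL55 rise.

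A few members went against the rest. MRPL41, a mitochondria-specific protein of the large subunit, had a signal in TMD8 cells of 9.17, 9.14 and 9.12 on DMSO arrays and 10.05, 10.07 and 9.98 with ITF-A. With ITF-B it was 10.27, 10.15 and 10.21, against 9.30, 9.29 and 9.13. The rises were 1.86-fold and 1.96-fold (0.89 and 0.97, SE 0.067, limma adjusted p = 2.16e-14 and 1.76e-15), with no overlap. In DoHH2 cells, where DMSO arrays lay between 9.93 and 10.09, MRPL41 rose by 0.30 with either compound (limma adjusted p = 0.00045 and 0.00049), a call that was lost when arrays were scaled to their median in place of quantile normalization (0.08 and 0.04).

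MRPL55, of a family shared with bacteria, rose in DoHH2 cells by 0.38 (ITF-A) and 0.66 (ITF-B), and in TMD8 cells by 0.21 and 0.44. Its DoHH2 signal was 8.57, 8.58 and 8.55 on DMSO arrays and 8.93, 8.95 and 8.98 on ITF-A arrays. The ITF-B arrays gave 9.16, 9.10 and 9.14, against 8.44, 8.46 and 8.53. In TMD8 cells the ITF-A arrays (9.04, 9.27 and 9.08) overlapped their DMSO arrays (8.86, 9.09 and 8.80), and there the call was lost under median scaling (0.16, limma adjusted p = 0.17). MRPL40 rose in DoHH2 cells (0.43 and 0.39) and gave 0.09 and 0.17 in TMD8 cells, without a call, and MRPS14 rose in DoHH2 cells (0.29 and 0.35) and gave 0.13 and 0.05 in TMD8 cells, without a call. Of these, MRPL40 lost its calls under median scaling, where 2 of 76 genes stayed called higher with either compound in DoHH2 cells, MRPL55 and MRPS14. MRPL2 and MRPS31 rose in TMD8 cells (0.23 and 0.28, and 0.26 and 0.34), and MRPL43 rose there with ITF-A (0.28). With ITF-A, MRPL2 lost its call under both scalings (0.18 and 0.13), and MRPS31 and MRPL43 lost theirs under 75th percentile scaling (0.18 for each).

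The second question was whether the lines responded alike. The change in TMD8 minus that in DoHH2 cells was called for 27 of 76 genes with ITF-A, 18 above 0 and 9 below, against 11.4% and 11% of all genes and 18.1% and 17.1% of the brightest 10% of probes, where most members lie. With ITF-B it was called for 23, 17 above and 6 below, against 11.8% and 10.8% of all genes and 18.8% and 17.8% of the brightest probes. Within chip 1 alone 8 and 11 genes were called with the compounds, and within chip 2 alone 7 and 11, from 1 or 2 arrays a group. The split by direction depended on the normalization. When arrays were scaled to their median the differences called were 26 above and 1 below with ITF-A and 34 above and 0 below with ITF-B, and scaling to the 75th percentile gave 23 and 3, and 24 and 0, beside a shift of -0.11 in the median of all probes with ITF-B. Median scaling also moved the median of the brightest 10% of probes, to 0.17 for ITF-A but 0.27 for ITF-B, beside medians of 0.18 and 0.23 of the members, and under 75th percentile scaling these were 0.12 and 0.14, beside 0.12 and 0.10. Both scalings kept genes whose fall was larger in DoHH2 cells, while the larger falls in TMD8 cells were called mainly after quantile normalization.

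Among genes with the larger fall in DoHH2 cells was MRPL54, whose change differed between the lines by 0.73 (ITF-A) or 0.59 (ITF-B, SE 0.096, limma adjusted p = 1.59e-07 and 8.91e-06). MRPS34, which is needed for a stable small subunit, fell from 8.17, 8.21 and 8.32 to 7.46, 7.34 and 7.47 with ITF-A in DoHH2 cells. In TMD8 cells it was 7.28, 7.56 and 7.40 on DMSO arrays and 7.18, 7.22 and 6.98 with ITF-A. With ITF-B the TMD8 groups overlapped, at 7.31, 7.36 and 7.23 against 7.29, 7.23 and 7.20. The raw intensities of MRPS34 on TMD8 DMSO arrays were low, 158 to 200, beside array medians of 93.2 to 112.1. Whether this low start limited its fall in TMD8 cells was not tested. The changes were -0.81 and -0.85 in DoHH2 and -0.29 and -0.06 in TMD8 cells, and they differed between the lines by 0.52 and 0.79 (SE 0.105, limma adjusted p = 0.00022 and 1.66e-07).

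MRPL52, a mitochondria-specific protein, fell by 0.62 and 0.60 in DoHH2 cells and gave -0.13 and 0.02 in TMD8 cells, with differences of 0.48 and 0.63. Its DMSO arrays lay between 8.68 and 8.96 in DoHH2 and between 7.68 and 7.90 in TMD8 cells, so that the treated DoHH2 arrays (8.12 to 8.26) still lay above those of TMD8 cells. MRPL28, of a family shared with bacteria, fell by 0.36 and 0.40 in DoHH2 cells and gave 0.06 and 0.13 in TMD8 cells (differences 0.42 and 0.53). MRPL41, which rose in both lines, rose by 0.59 and 0.67 more in TMD8 cells. These 5 genes kept their calls under both scalings. Both scalings also moved the median difference of the brightest 10% of probes above 0, which favors calls above 0. The kept calls therefore do not show that these differences are independent of the normalization.

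Genes with the larger fall in TMD8 cells were MRPS22, MRPS18C, MRPL32 and MRPL24. MRPS22 went from 10.06, 10.08 and 10.17 to 9.35, 9.21 and 9.22 with ITF-A in TMD8 cells, and from 10.40, 10.25 and 10.23 to 10.08, 10.01 and 9.99 in DoHH2 cells. The changes of -0.84 and -0.27 differed by -0.58 (SE 0.095, limma adjusted p = 9.84e-06), and with ITF-B the difference was -0.40. Under median scaling MRPS22 gave -0.40 with ITF-A (limma adjusted p = 0.024) and -0.11 with ITF-B, where the call was lost.

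MRPS18C differed by -0.58 and -0.29, MRPL32, a zinc-binding protein that is cleaved by a mitochondrial protease before assembly, by -0.37 and -0.48, and MRPL24 by -0.38 and -0.41. MRPL32 and MRPL24 kept neither call under median scaling. MRPS18C lost both, and its difference with ITF-B turned to 0.03.

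**Figure D3:**
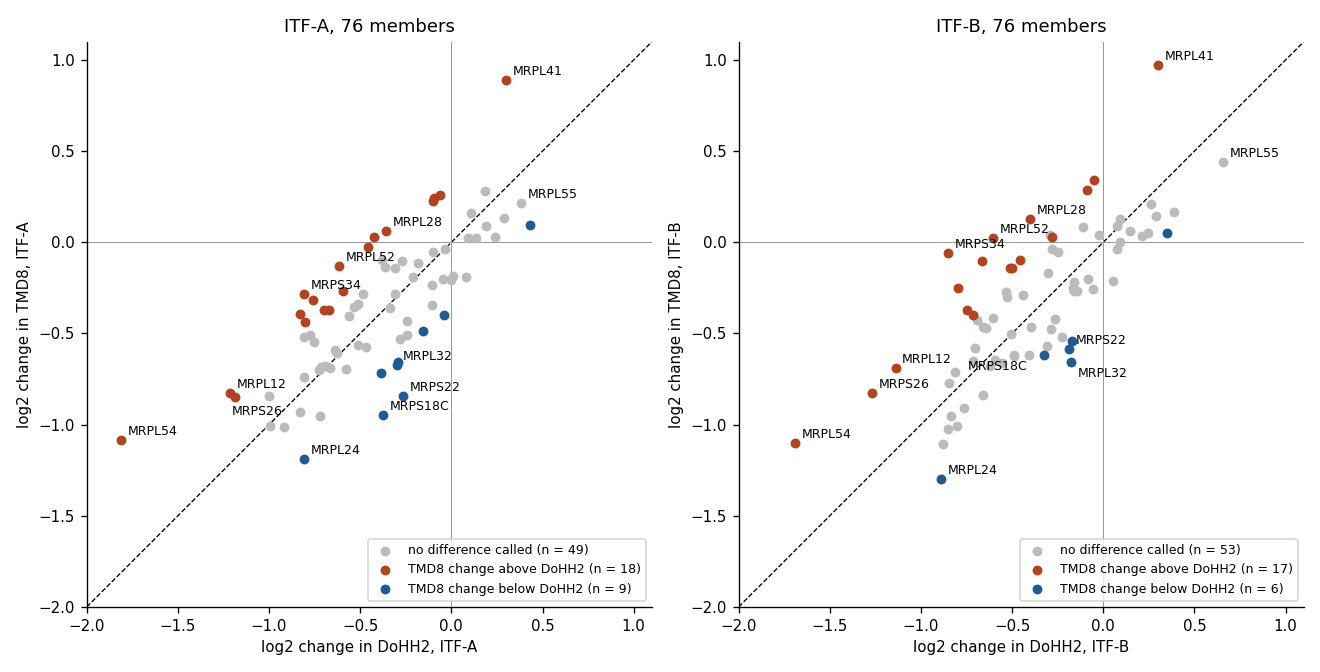
Log2 change in TMD8 cells (vertical axis) against that in DoHH2 cells (horizontal axis) for the 76 members with ITF-A (left) and ITF-B (right). The broken line marks equal changes. Red and blue points are genes whose changes differed between the lines (adjusted p under 0.05), 18 above and 9 below the line for ITF-A, 17 above and 6 below for ITF-B, and MRPL54 lies farthest to the left.

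The lines also differed before treatment. On the DMSO arrays, 42 of 76 genes were lower and 14 higher in TMD8 than in DoHH2 cells, with a median difference of -0.17, against 22.6% of all genes lower and 21.2% higher. Among the brightest 10% of probes 39.3% were lower and 35.2% higher. Under median scaling the counts were 61 lower and 1 higher, and under scaling to the 75th percentile they were 55 and 7, with a shift of 0.11 in the median of all probes. Each chip alone gave 31 and 32 lower. The brightest 10% of probes shifted too, with medians of -0.28 and -0.17 under the 2 scalings, beside -0.45 and -0.34 of the members.

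MRPS33, a mitochondria-specific protein, had the largest difference, of -1.12 (SE 0.057, limma adjusted p = 3.55e-20). Its signal was 11.001, 10.86 and 10.73, and 10.69, 10.79 and 10.75 in the 2 sets of DoHH2 DMSO arrays. In TMD8 cells it was 9.61, 9.64 and 9.68, and 9.70, 9.55 and 9.91, with no overlap. MRPS17, of a family shared with bacteria, was lower by 1.07 in TMD8 cells. MRPS31 and MRPL52 differed by -0.99 each and MRPS34 by -0.95.

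Genes higher in TMD8 cells differed by less. MRPS6 had a signal of 12.24, 12.23 and 12.21, and 12.23, 12.24 and 12.13 on TMD8 DMSO arrays and of 11.70, 11.76 and 11.60, and 11.51, 11.69 and 11.75 on those of DoHH2 cells, a difference of 0.55 (SE 0.050, limma adjusted p = 1.4e-12). It was the one gene still called higher under median scaling (0.26). MRPS11, MRPL2, MRPS18A and MRPS18B were higher by 0.37, 0.36, 0.36 and 0.33.

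The third question was whether the compounds differed. Their doses did, at 100 nM and 200 nM, so that compound and dose cannot be told apart, and each had its own DMSO arrays. By limma no member differed between ITF-A and ITF-B in DoHH2, in TMD8 or over both lines (0 of 76 called in each, against 0% of all genes), and 3, 9 and 9 had an unadjusted p under 0.05. The share of all genes at that unadjusted threshold is not given here, so nothing is drawn from these last counts. The difference of the log2 changes was at most 0.28 in DoHH2 and 0.33 in TMD8 cells in size. Its 95% interval lay within 0.5 of 0 for all 76 genes in DoHH2 and for 75 in TMD8 cells, and within 0.25 for 19 and 17, so that smaller differences could not be shown or excluded for most genes.

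Over both lines the largest differences were those of MRPL55, whose rise was 0.30 under ITF-A but 0.55 under ITF-B (difference -0.25, 95% interval -0.39 to -0.11, limma adjusted p = 0.99), of MRPS25 (0.22, 0.06 to 0.37) and of MRPL39 (-0.21, -0.36 to -0.06). MRPS25, a mitochondria-specific protein, fell by 0.15 and 0.36 over both lines. When both DMSO sets of a line served as the control of each compound, 1 gene was called in TMD8 cells and 0 in DoHH2 cells.

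**Figure D4:**
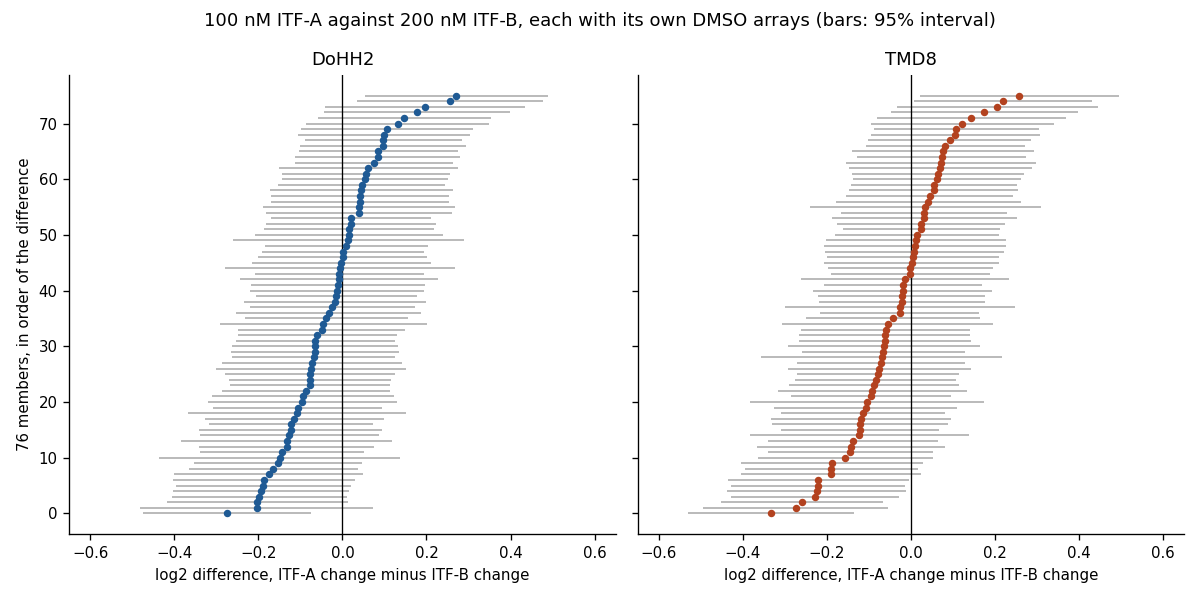
Difference between the log2 changes with 100 nM ITF-A and 200 nM ITF-B (horizontal axis) for the 76 members, ordered by that difference within each line (vertical axis). Bars are 95% intervals. No point lies farther than 0.33 from 0, and 0 of 76 genes were called in either line.

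Of the 76 genes, 27 had more than 1 probe. All probes of a gene gave the same call for 18 of 27 in DoHH2 cells with ITF-A, 15 with ITF-B, and 20 and 22 in TMD8 cells. MRPS33 was the one gene with opposite calls. Its brighter probe fell by 0.34 with ITF-A in DoHH2 cells, while the other rose from 8.50, 8.35 and 8.45 to 9.19, 9.15 and 9.14, by 0.72 (SE 0.069, limma adjusted p = 2.08e-11), with no overlap. In TMD8 cells the second probe went from 7.49, 7.46 and 7.55 to 7.86, 7.61 and 7.83, a rise of 0.27, beside a fall of 0.36 of the brighter one. Both probes carry the same transcript accession in the annotation, and which of them follows the gene's mRNA was not tested. The 3 probes of MRPL55 gave 10 rises out of 12 and no fall, and the dimmer probe of MRPS18C, which lay below the median of all probes, was not called.

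Promoters of nuclear genes of mitochondria often hold binding motifs of ETS factors such as GABPA, of YY1 and of NRF1. RefSeq windows of 300 bases (250 before to 50 after the start, GRCh38.p14) were given for 68 of the 76 genes. The ETS motif CCGGAAG, searched on both strands, was in 28 of them (41.2%), against 14.2% of 15843 windows of protein-coding genes. The YY1 motif AAGATGGCG was in 13 (19.1%, against 2.74%), the NRF1 motif GCGCATGCG in 3 (4.41%, against 2.76%) and the E-box CACGTG in 6 (8.82%, against 8.88%). The ETS and YY1 motifs share the letters AAG, so that 1 run can match both.

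Among the 33 windows of genes lower in all 4 comparisons, 36.4% held the ETS and 21.2% the YY1 motif, and among the other 35 windows 45.7% and 17.1%. A match is a run of letters in a window and not evidence of binding, and these shares were not tested.

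Windows are shown for the gene with the largest fall, for the riser MRPL41, for MRPS34, which differed between the lines, and for the pairs of head-to-head genes described next. Capitals mark a match to any of the 4 motifs on either strand. The windows lie at chr19:3762432-3762731 (MRPL54, plus strand), chr9:137551629-137551928 (MRPL41, plus), chr16:1773085-1773384 (MRPS34, minus), chr19:38930694-38930993 (MRPS12, plus) and chr15:88467339-88467638 (MRPL46, minus).
MRPL54: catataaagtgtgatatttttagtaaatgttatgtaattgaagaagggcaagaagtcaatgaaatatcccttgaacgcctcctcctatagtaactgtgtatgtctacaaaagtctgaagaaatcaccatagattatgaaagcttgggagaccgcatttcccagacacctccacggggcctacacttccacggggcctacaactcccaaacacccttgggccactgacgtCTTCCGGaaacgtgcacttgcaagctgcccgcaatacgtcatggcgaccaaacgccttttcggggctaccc
MRPL41: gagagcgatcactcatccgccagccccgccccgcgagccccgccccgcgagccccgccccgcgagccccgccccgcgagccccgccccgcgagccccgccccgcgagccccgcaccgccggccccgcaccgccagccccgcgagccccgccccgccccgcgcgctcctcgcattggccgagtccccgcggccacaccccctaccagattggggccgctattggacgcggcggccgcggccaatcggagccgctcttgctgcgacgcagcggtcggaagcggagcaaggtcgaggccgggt
MRPS34: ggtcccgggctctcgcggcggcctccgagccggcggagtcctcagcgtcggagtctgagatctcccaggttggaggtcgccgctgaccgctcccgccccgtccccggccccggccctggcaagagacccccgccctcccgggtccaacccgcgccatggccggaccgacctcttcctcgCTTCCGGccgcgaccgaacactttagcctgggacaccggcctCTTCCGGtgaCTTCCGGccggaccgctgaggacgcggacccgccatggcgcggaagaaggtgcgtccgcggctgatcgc
MRPS12: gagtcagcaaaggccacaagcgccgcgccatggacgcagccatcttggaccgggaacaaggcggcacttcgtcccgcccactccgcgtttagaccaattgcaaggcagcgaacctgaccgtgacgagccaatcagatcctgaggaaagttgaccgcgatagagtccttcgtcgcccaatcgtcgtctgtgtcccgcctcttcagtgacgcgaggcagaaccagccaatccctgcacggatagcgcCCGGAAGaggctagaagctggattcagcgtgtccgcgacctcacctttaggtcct
MRPL46: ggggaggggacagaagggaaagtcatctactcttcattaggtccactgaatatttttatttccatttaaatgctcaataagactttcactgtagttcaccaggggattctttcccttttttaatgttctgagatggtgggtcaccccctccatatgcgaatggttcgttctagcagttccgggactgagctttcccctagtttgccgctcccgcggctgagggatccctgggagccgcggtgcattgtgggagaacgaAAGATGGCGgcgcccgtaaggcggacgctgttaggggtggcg
The capitals are the ETS motif in MRPL54, in MRPS12 and, at 3 places, in MRPS34, and the YY1 motif in MRPL46. MRPL41 holds none of the 4.

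Of the 68 genes, 17 (against 11.2% of 15843 genes) start within 1000 bases of a gene transcribed the other way. MRPL46 and MRPS11 are such a pair, with starts 320 bases apart, and both fell in all 4 comparisons (MRPS11 by 0.24, 0.22, 0.51 and 0.52). MRPS12 and SARS2, the mitochondrial seryl-tRNA synthetase, start 181 bases apart. SARS2 went from 9.22, 9.21 and 9.33 to 8.07, 8.06 and 7.85 with ITF-A in DoHH2 cells and fell by 1.26, 1.23, 0.89 and 0.86, beside falls of 0.67, 0.75, 0.37 and 0.37 of MRPS12.

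HELQ, a DNA helicase gene, rose by 0.33, 0.37, 0.62 and 0.51 while MRPS18C, whose start is 175 bases away, fell. PIERCE1, 813 bases from MRPS2, rose by 1.62, 1.40, 1.53 and 1.41, while MRPS2 fell by 0.70 and 0.67 in DoHH2 and by 0.37 with ITF-A in TMD8 cells. Of the 15 partners that are not mitochondrial ribosomal protein genes, 2, 3, 6 and 5 were lower and 5, 5, 2 and 3 higher in the 4 comparisons, with medians between -0.04 and 0.07, beside 17% to 17.8% of all genes lower and 18.8% to 19.3% higher.

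Other genes of mitochondrial translation were lowered in part, and the shares of all genes given above are the background of these counts. Of 26 genes of ribosome assembly and rRNA processing in mitochondria, 12 and 11 were lower in DoHH2 and 13 and 13 in TMD8 cells, with 3, 5, 5 and 5 higher and medians between -0.26 and -0.12. FASTKD2, an RNA-binding protein needed for the large subunit RNA, fell by 0.67, 0.86, 0.95 and 0.91, and DDX28, an RNA helicase, by 0.72, 0.71, 0.80 and 0.71. NOA1, a GTPase of ribosome assembly, rose by 0.49, 0.59, 0.69 and 0.75, and MPV17L2 by 0.33, 0.34, 0.84 and 0.67.

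Among 13 translation factors 6 were lower in each comparison and 1, 1, 2 and 2 higher. TACO1, the translational activator of the cytochrome c oxidase subunit COX1, fell by 0.79, 0.62, 0.97 and 0.85, and the initiation factor MTIF2 by 0.83, 0.67, 0.96 and 0.87. The release factor MTRF1L rose by 0.85, 0.90, 0.39 and 0.49. Of 19 genes of mitochondrial aminoacyl-tRNA synthetases and tRNA amidation, 11, 10, 11 and 9 were lower and 1, 2, 2 and 2 higher. The falls were led by SARS2 and by YARS2 (-1.27, -1.15, -1.12 and -1.09), and RARS2 rose (0.84, 0.90, 0.41 and 0.42). The other genes called higher were PARS2 in DoHH2 cells with ITF-B (0.19) and MARS2 in TMD8 cells (0.34 and 0.27).

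Mitoribosomal proteins known under other symbols gave 2 lower and 1 or 2 higher of 4. CHCHD1 fell by 0.53, 0.38, 0.55 and 0.34 and GADD45GIP1 by 0.60, 0.45, 0.39 and 0.31, while DAP3, the GTP-binding protein of the small subunit, rose by 0.32, 0.33, 0.47 and 0.51. DAP3 had a signal of 9.93, 9.93 and 9.89 on TMD8 DMSO arrays and of 10.45, 10.48 and 10.23 with ITF-A. For transcription and maintenance of mitochondrial DNA, 9, 9, 7 and 7 of 18 genes were lower and 2, 2, 3 and 2 higher, beside 17% to 17.8% of all genes lower and 18.8% to 19.3% higher. TEFM, the elongation factor of mitochondrial transcription, rose in DoHH2 cells (0.30 and 0.32) and with ITF-A in TMD8 cells (0.20). TFB2M, the initiation factor of mitochondrial transcription, fell by 0.61, 0.62, 0.99 and 0.99, and POLRMT, the mitochondrial RNA polymerase, by 0.53, 0.63, 0.27 and 0.30. TWNK, the helicase of mitochondrial DNA replication, fell by 0.75, 0.87, 0.45 and 0.54, and the RNA-binding protein LRPPRC rose in TMD8 cells (0.46 and 0.30).

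Cytosolic ribosomal protein genes did not share the pattern. Of 70 such genes, 7, 7, 5 and 6 were lower and 4, 7, 6 and 6 higher in the 4 comparisons, and their medians lay between -0.01 and 0.02. These counts are below the 17% to 19.3% of all genes in each direction.

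**Figure D5:**
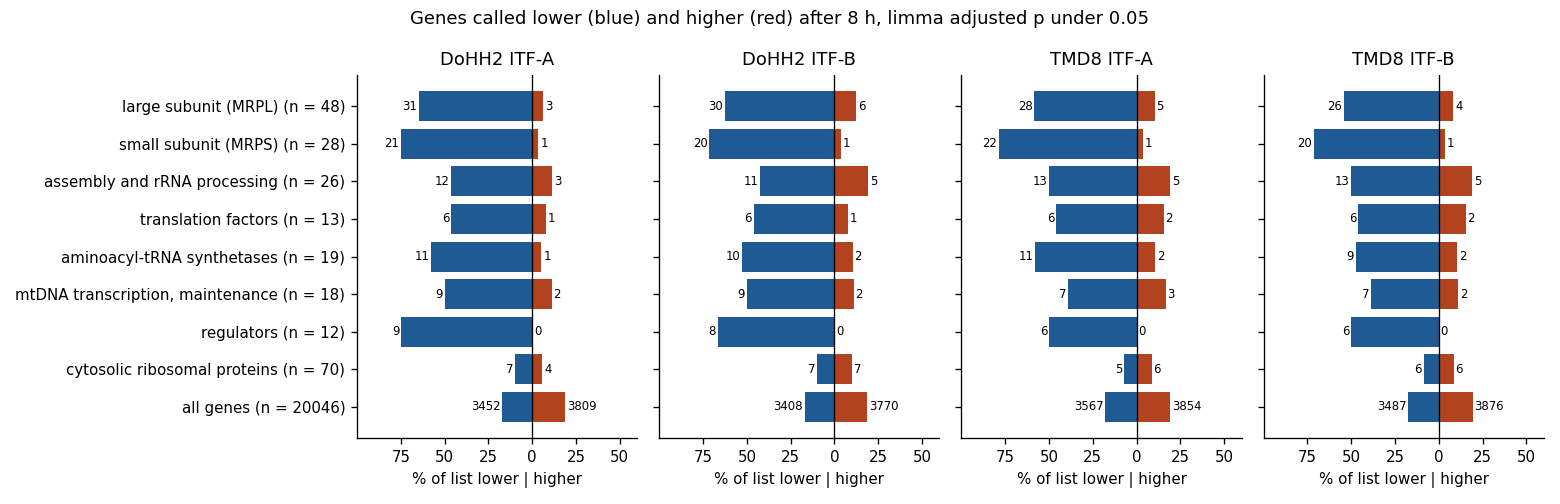
Share of each list (horizontal axis, in percent) called lower (blue, to the left) or higher (red, to the right) in the 4 comparisons, with the number of genes called beside each bar. The bars of the MRPL and MRPS genes reach farther left than those of all 20046 genes, and those of the 70 cytosolic ribosomal protein genes do not.

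Of 12 genes known to regulate nuclear genes of mitochondria, 9, 8, 6 and 6 were lower and 0 were higher in each comparison by limma. The shares of all genes were 17% to 17.8% lower and 18.8% to 19.3% higher, and this list too was chosen with earlier results known. MYC, a transcription factor known to raise mitochondrial ribosomal protein genes, went from 11.89, 11.88 and 11.86 to 10.56, 10.19 and 10.06 under ITF-B in DoHH2 cells and from 11.62, 11.66 and 11.59 to 8.86, 8.74 and 8.94 in TMD8 cells. Its changes were -1.66 and -1.61 in DoHH2 and -2.44 and -2.78 in TMD8 cells, and the groups did not overlap. HCFC1, a transcriptional coregulator, fell by 2.03, 2.23, 1.64 and 1.61. GABPA changed by -0.74 and -0.78 in DoHH2 and, under ITF-B, by -0.35 in TMD8 cells. YY1 changed by -0.50 under either compound in DoHH2 cells and gave -0.10 and -0.08 in TMD8 cells, without a call. NRF1 gave -0.04, 0.07, 0.12 and -0.12 with no call, but its probe lay between 5.86 and 6.39 on all arrays, around the median of all probes (6.16), and TFAM, which packs mitochondrial DNA, fell in DoHH2 cells by 0.25 and 0.24. Whether the changes of these regulators have a part in those of the mitochondrial ribosomal protein genes was not tested.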

How the data were processed

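RNA of the 24 cell line samples was measured on Illumina HumanHT-12 v4 arrays. The authors deposited a table of probe intensity values that were not normalized (the scanner software and any background step are not given in the sources used here) and a table of log2 values that they had quantile-normalized. Their methods also name ComBat, a batch correction, and whether the log2 values are from before or after it is not given in the sources used here. The intensity table gave the main results, and the log2 table, in which each of the 24 columns lay closest to its own array (lowest r = 0.9998), was an alternative. Detection p-values and control probes were not used here.

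Intensities were background-corrected by normexp with an offset of 50, quantile-normalized between arrays and put on the log2 scale with limma 3.58.1 in R 4.3.3. One linear model over the 8 groups with a term for the chip (15 residual degrees of freedom) and empirical Bayes moderation gave the comparisons, and p-values were adjusted by the Benjamini-Hochberg method over all 47231 probes of each comparison, of which 30113 had 1 gene symbol, 8 several and 17110 none. A change counted as called at an adjusted p under 0.05. Intervals are 95% intervals of the fit. The script was tested on simulated data.

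Alternatives were a smaller offset (16), no background correction, the authors' log2 table, scaling by the median or the 75th percentile, a filter on dim probes, no chip term, each chip alone, array weights, fits by line, a control of both DMSO sets together, the dimmest probe of a gene, a minimum log2 change of 0.25, each array left out and a replicate block. Sample titles give the number of the experiment. Same-numbered arrays deviated together only weakly (mean correlation 0.0523, 0.0605, 0.0488 and 0.0241 in the 4 comparisons, over 23615 probes), so the main model had no block. Each chip held 1 or 2 arrays of every group, 1 of each DoHH2 and 2 of each TMD8 group on chip 1 and the reverse on chip 2, so with a chip alone a single array was assumed to vary like the other groups.

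The members and gene lists were chosen with earlier results of these data known. Genes were named by a rule: the 3 largest falls and 2 largest rises of each comparison that ran 1 way in 3 of 3 experiments, up to 5 per direction that differed between the lines with both compounds or in DMSO, the 3 largest differences between compounds, genes of known role, and up to 2 falls and 2 rises of each other list. MRPL46, MRPL4, MRPS14, MRPS2, MRPS35, MARS2 and the head-to-head partners were named after their values were seen. Promoters were searched with Python 3.11.15 in RefSeq sequences, and 8 members without a window are not described there. Figures were drawn with matplotlib 3.10.9.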

Additional observations from a re-analysis of the deposited data

Results flagged for a closer look

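The results here are genes whose change differed between the lines by the interaction test in limma (change in TMD8 minus change in DoHH2 cells, log2 scale, adjusted p under 0.05 with the same model). They are the genes that the naming rule gave.

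Above 0 with both compounds were MRPL54 (0.73 with ITF-A and 0.59 with ITF-B), MRPS34 (0.52 and 0.79), MRPL41 (0.59 and 0.67), MRPL52 (0.48 and 0.63), MRPL28 (0.42 and 0.53) and MRPL12 (0.39 and 0.45). MRPS26 gave 0.34 and 0.44, MRPS12 gave 0.30 and 0.37, MRPS31 gave 0.32 and 0.39 and MRPL2 gave 0.32 and 0.38. MRPS17 was called with ITF-B (0.36).

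Below 0 with both compounds were MRPS22 (-0.58 and -0.40), MRPS18C (-0.58 and -0.29), MRPL32 (-0.37 and -0.48) and MRPL24 (-0.38 and -0.41). MRPL40 (-0.34) and MRPS18A (-0.36) were called with ITF-A. Of the genes named after their values were seen, MRPS2 gave 0.32 and 0.56, MRPL4 was called above 0 with ITF-A and MRPS14 was called below 0 with ITF-B (-0.30).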

How the results depend on the processing

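The fall of most members kept its direction under all alternatives, and its median stayed below 0. Counts are of the 76 genes, for DoHH2 ITF-A, DoHH2 ITF-B, TMD8 ITF-A and TMD8 ITF-B unless named. Under median scaling 2, 2 and 3 were higher in the first 3, 3 and 3 over both lines with ITF-A and ITF-B, and 1 in TMD8 against DoHH2 DMSO arrays, and the medians were -0.617, -0.612 and -0.390. Under 75th percentile scaling 2, 2 and 1 were higher, 3 and 3 over both lines and 7 in DMSO, and the medians were -0.610, -0.563, -0.438 and -0.333. Without background correction the DoHH2 ITF-B median was -0.359, and in the authors' log2 table it was -0.349, with -0.333 for TMD8 ITF-A. With an offset of 16, 3 were higher in TMD8 ITF-A, and 13 and 15 differed between lines. With the filter on dim probes 7 were higher in DoHH2 ITF-A. Chip 1 alone gave 3 higher in DoHH2 ITF-B, 8 in DMSO, and 8 and 11 between lines. Chip 2 alone gave 1 and 3 higher in TMD8 cells, 4 over both lines with ITF-B, a TMD8 ITF-B median of -0.332, and 7 and 11 between lines. With both DMSO sets 7 were higher in DoHH2 ITF-A and 1 differed between compounds in TMD8 cells. A minimum change of 0.25 left 35, 35, 30 and 32 lower and 0, 1, 1 and 2 higher. It left 38 and 37 lower and 1 and 2 higher over both lines, 4 and 4 between lines, and 1 higher and 24 lower in DMSO. The dimmest probe gave medians of -0.309 (DoHH2 ITF-B) and -0.248 (TMD8 ITF-B). The cause of these changes was not tested.

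Directions that turned under median scaling were those of MRPS18C between lines with ITF-B (0.027), MRPL39 in DoHH2 ITF-B (-0.040) and, in DMSO, MRPL39 (-0.12), MRPS12 (-0.038), MRPL44 (-0.11) and MRPS16 (-0.23), and under 75th percentile scaling MRPL39 in DMSO (-0.0092). With the dimmest probe they were MRPS33 (0.72, 0.71, 0.27 and 0.23), MRPS18C (0.12 in DoHH2 ITF-B, 0.17 and 0.11 in TMD8 cells, 0.17 between lines with ITF-A and 0.088 in DMSO), MRPS12 between lines (-0.0078 and -0.00145), MRPL44 (0.048 in DoHH2 ITF-A, 0.018 in TMD8 ITF-A and -0.026 in DMSO), MRPL11 and MRPL43 in DMSO (0.42 and 0.35), MTIF2 (0.021 in DoHH2 ITF-B and 0.00034 in TMD8 ITF-A) and MTRF1L in TMD8 ITF-B (-0.050). Leaving out each array in turn gave 50 to 52, 47 to 50, 47 to 51 and 42 to 46 lower, 4 to 6, 6 to 8, 4 to 6 and 4 to 5 higher, 23 to 27 and 20 to 25 between lines, and 0 between compounds, and the TMD8 medians ran from -0.371 to -0.335 and from -0.330 to -0.283. With the replicate block 52, 50, 51 and 46 were lower, and it moved no count by over 1.5 times. With 3 arrays a group and a median SE of 0.0724, changes of that order could not be called.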
